A study of Mus musculus with 65 samples.

Results

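Reopening of chromatin behind the replication fork was followed over 2 h in mouse embryonic stem cells that had been given only the solvent DMSO. The comparison rests on 6 of the 65 samples of the series: 3 libraries of DNA labelled with EdU and collected at once (nascent) and 3 collected after a chase of 2 h. The samples were chosen by their labels. From the 1 kb windows of the deposited table, those nearest 31995 transcription start sites (TSSs) and 8794 enhancers were taken. Beside them stood 2612975 non-overlapping windows that touch neither, of which 180232 had enough reads to be tested. All groups were E14TG2a cells (strain 129/Ola, embryonic stem cells of 1 established line) on gelatin in medium with serum and LIF, with no genetic change labelled. They were kept for 2 h in DMSO, in DRB or in triptolide, then pulsed with 20 uM EdU for 10 min, and the 2 h groups were chased with 10 uM thymidine. The DRB and triptolide groups (3 nascent and 3 chased libraries each) are used here to ask whether a change over the chase was larger or smaller in DMSO. They also enter the filters and the estimate of spread behind the DMSO tests of single windows, which were fitted on all 18 EdU libraries. The unbound fraction of the same DMSO captures stands for chromatin of any replication age. The labels give neither the inhibitor doses nor whether the cells were still exposed after the pulse.

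When a fork passes, nucleosomes, transcription factors and RNA polymerase are displaced from both daughter strands and have to be rebuilt. Repli-ATAC-seq reads that state with the Tn5 transposase, which inserts sequencing adapters where DNA is open, followed by capture of the fragments that carry EdU. DRB inhibits the CDK9 kinase, which lets RNA polymerase II leave the promoter-proximal pause, and triptolide inhibits the XPB subunit of TFIIH, which opens promoter DNA at initiation.

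The nascent DMSO libraries held 1734385, 1981336 and 3780682 reads and the 2 h libraries 3262346, 2780200 and 3615682, recovered from the single-read step of the deposited values. A window with 3 reads therefore stood at 1.73, 1.51 and 0.794 RPM (reads scaled to the library's total) in the nascent and at 0.920, 1.08 and 0.830 RPM in the 2 h libraries, which limits what can be said of low windows. In the 1960564 windows at least 1000 bp from any listed peak, TSS or enhancer (background), RPM was 0.303 ± 0.000522 in nascent and 0.193 ± 0.0147 in 2 h libraries (SD, n = 3 each), against 0.173 and 0.179 in the unbound fraction. Levels of a class of windows are therefore given as its mean RPM over that background, and tests of single windows on the deposited log2(RPM + 1). Nothing in the labels ties the libraries of a group to separate cultures. The p-values therefore rest on the spread between these samples alone, which may be technical.

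Enhancers started below promoters and ended above them in each of the 3 libraries of a time. TSS windows stood at 4.79, 4.94 and 4.98 times background in the nascent libraries and at 18.8, 18.2 and 15.4 times after the chase. The groups did not overlap, and the mean was 3.56-fold higher (4.90 ± 0.103 to 17.4 ± 1.82, SD, n = 3; two-sided exact permutation test p = 0.1, the smallest that 3 against 3 libraries allow). Enhancer windows started lower, at 4.23, 4.47 and 4.25 times background, and ended higher, at 25.5, 27.1 and 20.7 times, 5.65-fold higher (exact permutation p = 0.1). The third 2 h library was the lowest in both classes and still lay far above each nascent library; its background was the highest of the 3, at 0.210 RPM against 0.187 and 0.182. Taken against the unbound fraction at the same time, TSSs went from 22.4% to 87.8% and enhancers from 15.2% to 88.5%, so both classes ended close together by that ratio. The unbound levels themselves were 21.9 ± 0.710 and 19.9 ± 2.01 at TSSs and 28.4 ± 0.895 and 27.6 ± 2.29 at enhancers (exact permutation p = 0.3 and 0.6).

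**Figure D1:**
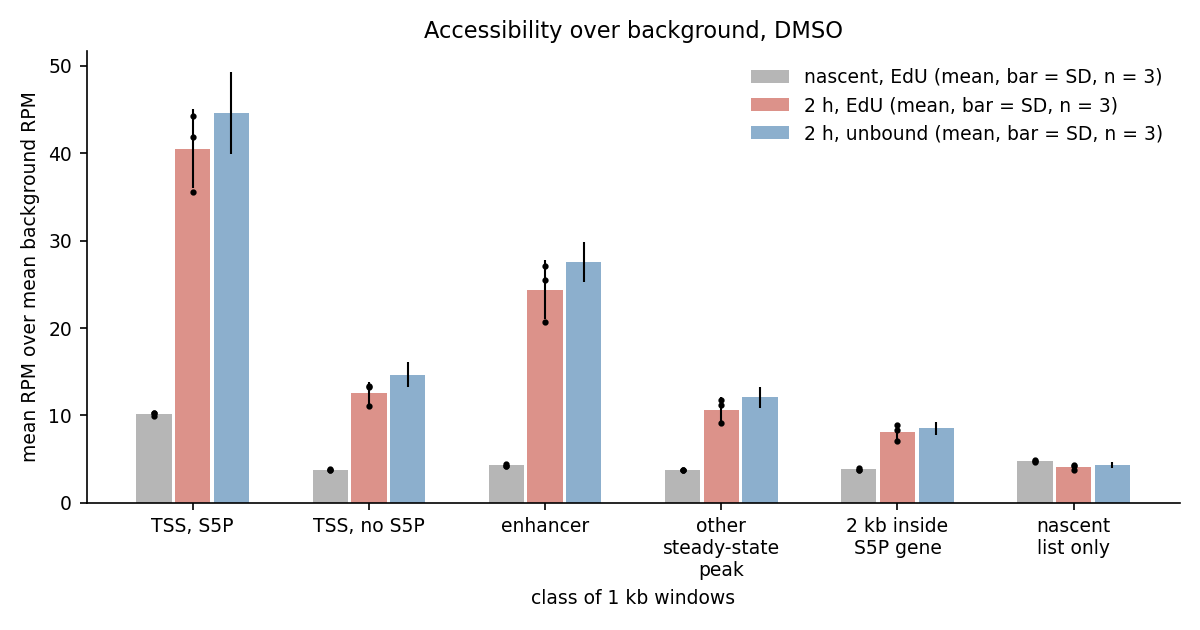
Mean RPM over background (y axis) for 6 classes of 1 kb windows (x axis) in nascent EdU, 2 h EdU and 2 h unbound DMSO chromatin; bars are means, error bars the SD of 3 libraries and points the single EdU libraries. Enhancers went from 4.32 to 24.4 times background and TSSs with S5P polymerase from 10.2 to 40.5, while windows listed only in nascent chromatin went from 4.76 to 4.08.

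Promoters that carry RNA polymerase II phosphorylated on serine 5 (S5P, the form that has initiated) in the deposited peak list of total chromatin began and ended higher than the rest. The 5578 TSSs with an S5P peak went from 10.2 ± 0.235 to 40.5 ± 4.50 times background, 3.99-fold, and the 26417 without one from 3.80 ± 0.0785 to 12.6 ± 1.27, 3.31-fold. In the unbound fraction the TSSs with an S5P peak were lower at the later time, at 50.3 ± 1.69 and then 44.6 ± 4.67 times background (exact permutation p = 0.1). Among enhancers the 169 with an S5P peak were 5.38-fold higher at 2 h, from 11.5 to 61.9, and the others 5.67-fold, from 4.18 to 23.7. Enhancers with another enhancer within 25 kb were 5.30-fold higher (1411 windows, 5.16 to 27.3) and those without one 5.74-fold (7383 windows, 4.16 to 23.8).

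The separate time series of the study lists peaks at 0, 30 min, 1 h, 2 h and steady state, and the first list that holds a site also went with its level here, higher for earlier lists. TSSs first listed in nascent chromatin were 4.04-fold higher (9.87 to 39.9 times background), those first listed at 30 min 3.93-fold (5.85 to 23.0), at 1 h 3.32-fold, at 2 h 2.92-fold and at steady state 1.95-fold (3.20 to 6.23). The 14384 TSSs in no list went from 1.29 ± 0.00599 to 1.35 ± 0.0444. Enhancers first listed at 30 min had a larger fold (6.34, from 4.58 to 29.1) than those first listed in nascent chromatin (6.01, from 8.90 to 53.5), with 6.03, 4.85 and 3.08 for the lists at 1 h, 2 h and steady state. At the 179921 other steady-state peaks the level was 2.85-fold higher, from 3.75 to 10.7 times background. Each of these classes had non-overlapping libraries and an exact permutation p of 0.1.

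The gain was narrow. At TSSs with S5P the 2 h level was 40.5 at the start site, 30.2 at 500 bp upstream and 28.7 at 500 bp downstream, 14.6 at 1000 bp downstream and 8.11 at 2000 bp. The ratio of 2 h to nascent fell with it, from 3.99 at the centre to 2.10 at 2000 bp and 1.92 at 5000 bp downstream. Around enhancers more than 5 kb from a TSS the level fell from 23.5 at the centre to 6.22 at 1000 bp and 3.87 at 5000 bp, and the ratio from 5.84 to 1.86. Levels 5 kb away still stood above background in both directions.

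**Figure D2:**
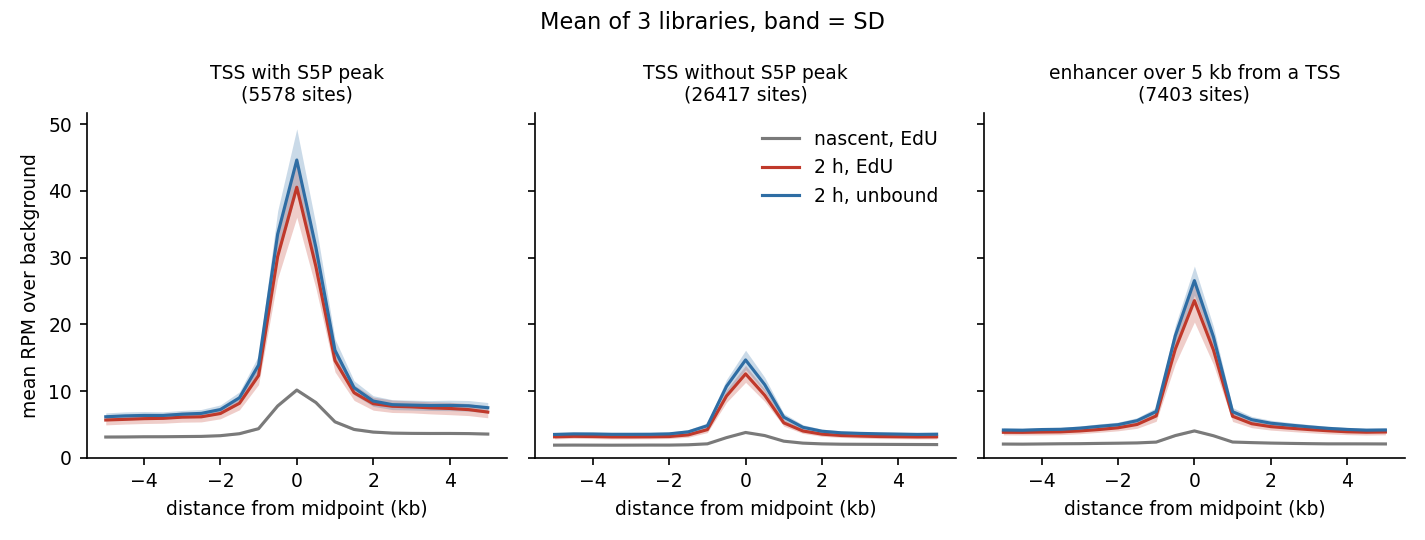
Mean RPM over background (y axis) by distance in kb from TSSs with S5P, TSSs without S5P and enhancers more than 5 kb from a TSS (x axis); lines are means of 3 libraries of nascent EdU, 2 h EdU and unbound DMSO chromatin and bands their SD. The 2 h line peaks at 40.5, 12.6 and 23.5 times background and runs just under the unbound line, and the nascent line peaks at 10.2, 3.80 and 4.03.

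As shares of all signal, TSS windows went from 8.22% ± 0.131 to 14.8% ± 0.472, enhancers from 2.18% ± 0.0576 to 5.66% ± 0.344 and other steady-state peaks from 19.1% ± 0.234 to 34.5% ± 2.04 (SD, n = 3). Windows with no peak went from 70.5% ± 0.387 to 45.1% ± 2.76 (exact permutation p = 0.1 for each). In the unbound fraction of the nascent capture they held 40.8%.

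In single windows, 9303 of 29799 TSSs tested were higher at 2 h (31.2%) and 489 lower (1.64%), with a median log2 difference of 0.34. Enhancers were called higher in 5579 of 8774 cases (63.6%) and lower in 75 (0.855%), with a median of 1.06. These splits depend on the scale: with each library centred on its own median window of the class, the median difference was -0.075 at TSSs and 0.10 at enhancers, and there were 4742 higher and 4186 lower TSSs and 1585 higher and 1407 lower enhancers, and with libraries scaled to the background 14213 and 330 TSSs. In the unbound fraction limma called 0 of 30310 TSSs and 0 of 8783 enhancers in either direction between the times (2177 and 497 at an unadjusted p under 0.05, and 0 TSSs by limma-voom).

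Higher calls were most frequent where chromatin is most open. Among TSSs split into 10 equal classes by unbound level, 97.4% of the most open class, 80.9% of the next and 0.165% of the least open class were higher. S5P promoters were higher in 3515 of 5552 cases (63.3%, median 1.01) against 23.9% of those without S5P. Their median nascent level was 2.86 RPM, against 0.857 RPM without S5P, so the chance of a call differed here too. Protein-coding TSSs were higher in 42.7%, long noncoding RNA TSSs in 26.9% and TSSs with no gene symbol in 10.9%. Enhancers more than 50 kb from a TSS were higher in 65.9% and those up to 5 kb away in 62.3%.

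Replication-dependent histone genes and small RNA genes were among those with the largest rises, beside coding genes of other kinds. Over genes with a symbol, 8652 of 24375 were higher (35.5%) and 321 lower (1.32%), and in 10311 (42.3%) all 3 libraries at 2 h lay above all 3 nascent ones, in 777 (3.19%) below them. H2ac8, which encodes core histone H2A, stood at 0.577, 2.02 and 1.59 RPM in nascent and 17.5, 20.1 and 15.8 RPM in 2 h libraries (log2 difference 3.02, SE 0.34, adjusted p = 6.2e-13). H3c6, a histone H3 gene, went from 1.15, 0.505 and 1.06 to 19.0, 12.9 and 10.8 RPM (2.98). H2bc14, a histone H2B gene, went from 1.15, 0.505 and 0.794 to 14.1, 12.2 and 11.1 RPM (2.90). No nascent library was over 2.02 RPM at these 3 promoters, and each 2 h library was over 10 RPM. Promoters of other kinds of genes stood beside them. Gpr108, a Golgi membrane protein gene, went from 4.04, 6.06 and 3.97 to 35.3, 40.6 and 42.9 RPM (2.85). Mtmr4, a phosphoinositide phosphatase gene, went from 1.73, 3.53 and 5.29 to 31.0, 29.5 and 34.6 RPM (2.93). Wdpcp, a planar cell polarity gene, and Mdh1, the cytosolic malate dehydrogenase gene, start from windows 500 bp apart and had the largest coding differences, 3.35 and 3.29.

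The promoters of 3 strong risers are printed to show what their open windows hold (RefSeq, GRCm38.p6, 250 bases before and 50 after the start, 5′ to 3′ on the gene's strand). Capitals mark the matches, on either strand, to any of 10 motifs; in these 3 they are CCAAT, the NF-Y box, and, once in H2bc14, the octamer that OCT4 binds. H2bc14 lies at chr13:21721794-21722093 (plus strand), H3c6 at chr13:23562336-23562635 (minus) and Gpr108 at chr17:57247640-57247939 (minus).
H2bc14: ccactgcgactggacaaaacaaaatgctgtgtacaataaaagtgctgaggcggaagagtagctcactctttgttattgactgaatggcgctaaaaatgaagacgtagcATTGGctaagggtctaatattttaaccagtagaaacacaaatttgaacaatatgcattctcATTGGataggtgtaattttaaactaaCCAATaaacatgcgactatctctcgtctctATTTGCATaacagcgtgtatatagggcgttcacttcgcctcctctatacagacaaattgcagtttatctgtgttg
H3c6: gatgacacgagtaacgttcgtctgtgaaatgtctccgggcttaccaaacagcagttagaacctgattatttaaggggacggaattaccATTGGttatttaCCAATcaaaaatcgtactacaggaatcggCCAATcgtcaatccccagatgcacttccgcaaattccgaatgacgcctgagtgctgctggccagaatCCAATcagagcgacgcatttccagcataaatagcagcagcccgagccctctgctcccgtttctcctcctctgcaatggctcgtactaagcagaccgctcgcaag
Gpr108: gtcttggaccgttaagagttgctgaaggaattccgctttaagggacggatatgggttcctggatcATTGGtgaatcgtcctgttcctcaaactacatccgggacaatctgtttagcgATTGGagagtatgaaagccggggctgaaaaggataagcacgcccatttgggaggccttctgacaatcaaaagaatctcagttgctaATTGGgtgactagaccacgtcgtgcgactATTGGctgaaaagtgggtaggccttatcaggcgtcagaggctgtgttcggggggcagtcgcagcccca
All 3 carry several CCAAT boxes. Of 52 matched histone promoters, 86.5% held a CCAAT, 63.5% a TATAAA and 23.1% an octamer, against 38.6%, 12.7% and 1.66% of 14780 coding promoters matched and 37.4%, 13.6% and 1.74% of all 32851 RefSeq promoters of this length. A match is a run of letters and not a measured binding site.

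**Figure D3:**
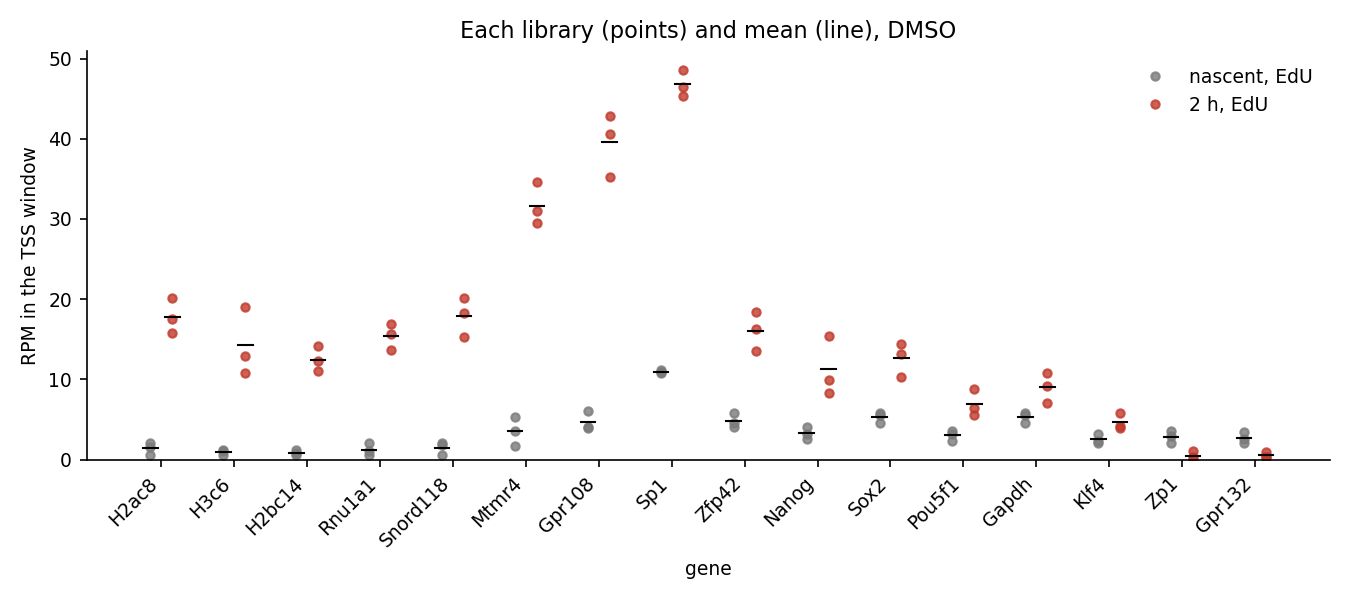
RPM in each of the 3 nascent and 3 2 h DMSO libraries (y axis, linear) for 16 TSS windows (x axis); points are libraries and short lines their means. H2ac8, H3c6, H2bc14, Rnu1a1 and Snord118 start near 0 and lie over 10 RPM at 2 h, Sp1 is the highest at both times, Nanog, Sox2, Pou5f1 and Klf4 have smaller gaps, and Zp1 and Gpr132 fall.

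In terms of RPM gained, the leading coding promoters were already open behind the fork. Sp1, a transcription factor of GC boxes, stood at 11.0, 11.1 and 10.8 RPM and rose to 45.4, 48.6 and 46.5 (log2 difference 2.00). Map3k3, Dapk3, Tomm40, Gsk3b, Zbtb20, Kmt5c, Zfp960 and B3galt4 rose by 2.17 to 2.56 with means at 2 h between 35.7 and 53.9 RPM. They include the kinases Map3k3, Dapk3 and Gsk3b, the mitochondrial import pore Tomm40 and the histone H4 lysine methyltransferase Kmt5c.

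Histone genes had the highest median difference of the lists read. Of 57 tested, 54 were higher and 0 lower, with a median log2 difference of 2.16 against 0.48 over all genes with a symbol. Their median RPM was 1.15, 1.51 and 1.32 in nascent and 9.81, 10.8 and 10.5 in 2 h libraries, with no overlap, and their summed level went from 8.20% to 99.4% of the unbound level. Only 20 of the 57 tested were in the nascent peak list, although 51 genes of the histone list carried S5P. Copies of these genes are near-identical in their coding part, so reads may be shared between them.

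Small nuclear RNA and U3 genes, which serve splicing and ribosomal RNA processing, had 11 of 19 TSSs higher, 0 lower and a median of 1.66. Rnu1a1, a U1 gene, went from 0.577, 2.02 and 1.06 to 15.6, 13.7 and 16.9 RPM (2.93). Snord118, the U8 RNA gene, which has its own promoter, went from 0.577, 2.02 and 1.85 to 15.3, 20.1 and 18.3 RPM (2.98), and Snord13, the U13 gene, rose by 3.20. Rnu3a, a U3 gene, rose by 3.29 to 40.5, 37.0 and 43.1 RPM in a window that is also listed as an enhancer. Of all 114 snoRNA genes tested, Snord118 and Snord13 included, most of which are processed from introns, 17 were higher and 4 lower (Snora15, Snora3, Snord68 and Snord96a), with a median of 0.01.

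Pluripotency genes were mostly higher at 2 h. Pou5f1 (which encodes OCT4) went from 2.31, 3.53 and 3.17 to 5.52, 6.47 and 8.85 RPM (log2 difference 0.98, adjusted p = 0.0095), Sox2 rose by 1.11, Nanog by 1.50 and Zfp42 (REX1) by 1.57. The libraries of the 2 times did not overlap at any of these 4. Of 26 naive pluripotency genes 19 were higher and 0 lower (median 1.15), led by Fbxo15 (2.20) and Trim28 (2.15), while Klf4 had a difference of 0.69 (adjusted p = 0.13). Esrrb, with 0.28, was even farther from the threshold (adjusted p = 0.64). The Esrrb value changed sign, to -0.14, with each library centred on its median window. Gapdh, a glycolysis gene often used as a control, also did not pass (0.66, adjusted p = 0.087).

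Genes of the replication and chromatin machinery were higher more often than the 35.5% of all genes and mostly above the 42.7% of coding TSSs. The fork list (helicase, polymerase and origin subunits) had 37 of 51 higher (median 1.04, Orc2 at 2.25), histone chaperones 22 of 25 (median 1.08, Asf1b at 2.30) and cyclins, CDKs and E2F factors 31 of 40 (median 1.15, Skp2 at 2.13). Remodeller subunits had 21 of 41, Polycomb and DNA methylation genes 15 of 21, the transcription machinery 40 of 64, splicing factors 40 of 56 and DNA repair genes 36 of 50. None of these lists had a member called lower. Most members of each list were in the nascent peak list (44 of 51 for the fork, 36 of 41 for remodellers), and of all TSSs in that peak list 63.9% were higher. Remodellers (51.2%) and the transcription machinery (62.5%) stood below that share and the other lists above it. Asf1b, which hands newly made histones to chromatin behind the fork, stood at 4.61, 7.07 and 7.94 RPM in nascent and 34.0, 33.5 and 39.0 RPM at 2 h.

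Metabolic and stress lists were higher more often than the 35.5% of all genes and the 42.7% of coding TSSs. Higher were 19 of 24 cholesterol synthesis genes (79.2%, median 1.27) and 23 of 33 heat shock genes (69.7%, median 1.06). So were 47 of 80 respiratory chain genes (58.8%), 42 of 74 mitochondrial ribosomal protein genes (56.8%) and 21 of 39 proteasome genes (53.8%). Most members of each of these lists were in the nascent peak list, of whose TSSs 63.9% were higher. The cholesterol and heat shock lists stood above that share, and the respiratory chain, mitochondrial ribosomal protein and proteasome lists below it. Cytosolic ribosomal protein genes had 35 of 86 higher (40.7%, close to the shares over all genes and coding TSSs) and 0 lower (median 0.70), although 76 carried S5P and 68 were in the nascent list. Immediate early and AP-1 genes had 12 of 26 higher (46.2%, also close to the coding share, median 0.73). Zinc finger genes with numbered symbols had 204 of 321 higher and 1 lower (Zfp57; median 1.05), led by Zfp788 (2.82). The medians given in these sentences stay above 0 with each library centred.

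Families that embryonic stem cells usually keep silent showed little, but few reads lay there. The median window of the olfactory, vomeronasal, keratin and defensin lists held fewer than 3 reads at both times, which limits what could be called. Over all genes 35.5% were higher and 1.32% lower. Of 984 olfactory receptor genes tested 4 were higher (Olfr224, Olfr243, Olfr658 and, by 1.15, Olfr27) and 24 lower (Olfr705 by -1.04), with a median of -0.07. Their median window stood at 0.0882 RPM in nascent and 0 RPM in 2 h libraries. The mean level of these genes over background did not fall (0.869 and 0.920 times). Of 186 vomeronasal receptor genes 2 were higher (Vmn1r4 and Vmn1r87), and of 97 keratin genes 2 were higher (Krt222 and Krtap5-5) and 5 lower (Krt25, Krt31, Krt32, Krtap1-3 and Krtap4-6). Of 41 defensin genes Defb25 was lower and Defb1, which encodes an epithelial antimicrobial peptide, was higher, from 0, 0.505 and 0.265 to 8.58, 9.35 and 4.43 RPM (2.71). Hox genes, held by Polycomb, had 8 of 31 higher (median 0.28, which falls below 0 with each library centred; Hoxc13 at 1.65), and clustered protocadherins 5 of 24 (Pcdha1, Pcdhb1, Pcdhb8, Pcdhb11 and Pcdhb17). The genes named for counts of 5 or fewer were chosen after their values were seen. Among markers of other cells, 3 of 11 for fibroblasts were higher (Vim, Fn1 and Thy1), 6 of 12 for primitive endoderm, 2 of 7 for trophectoderm (Tead4 and Cdx2), 8 of 10 for neural cells (median 1.34, Neurod1 at 1.92), 1 of 10 for erythroid and muscle cells (Tal1) and 1 of 11 for the 2-cell-like state (Zscan4d). The mean level of the fibroblast markers went from 3.51 to 16.3 times background and that of the neural markers from 6.34 to 30.6, against 12.7 to 53.6 for the 3 core pluripotency genes. The median fibroblast marker went only from 0.881 to 1.24 RPM, near 3 reads, so their mean does not stand for most of them. Of these markers 27.3% were higher, against 35.5% of all genes, and 1 was lower. The median neural marker went from 1.59 to 5.75 RPM. An open promoter does not show that the gene is transcribed, and RNA was not analysed here.

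**Figure D4:**
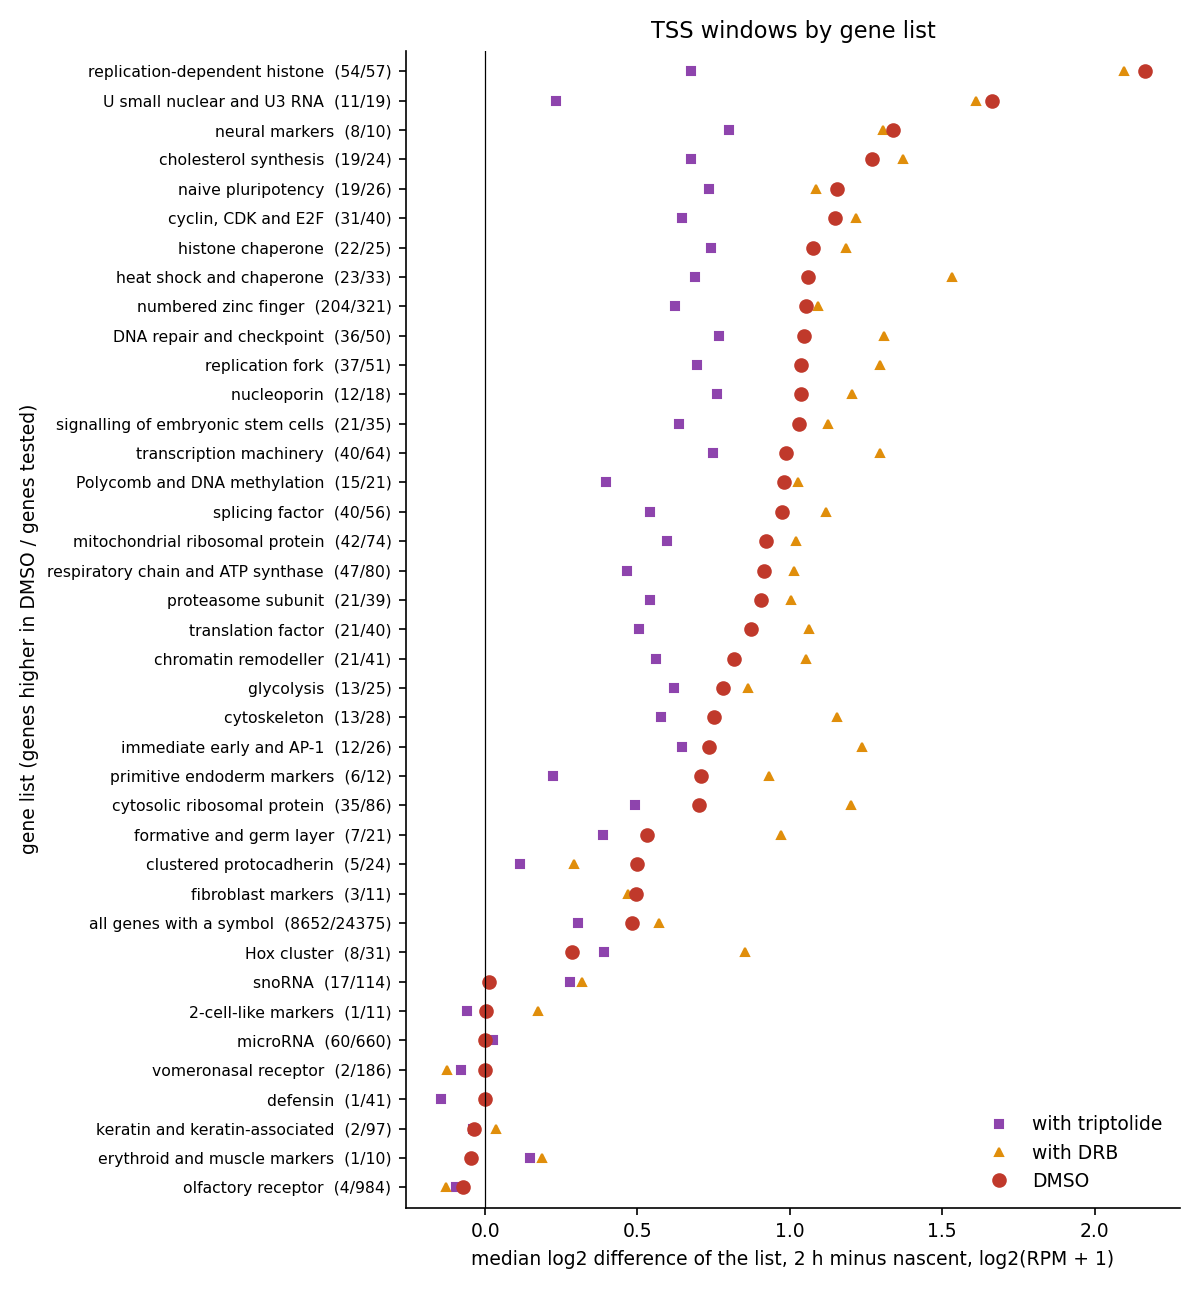
Median log2 difference, 2 h minus nascent, over the tested members of each gene list (x axis) in DMSO, triptolide and DRB, with the number higher in DMSO and the number tested beside each list (y axis). Histone genes (2.16) and small nuclear RNA genes (1.66) lie farthest right in DMSO, at 0.67 and 0.23 in triptolide and at 2.10 and 1.61 in DRB.

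Named promoters that were lower at 2 h had at most a few RPM in nascent chromatin. Il1r2, a decoy receptor for interleukin-1, stood at 2.88, 1.51 and 1.32 RPM in nascent and 0 in all 2 h libraries (adjusted p = 2.1e-05), and Lcn2, the lipocalin that binds siderophores, at 2.88, 1.01 and 1.32 and again 0 (adjusted p = 0.00085). No fold is given for them, since the 2 h libraries held no read there and the nascent ones only a few. Cidec, a lipid droplet gene, went from 1.15, 2.52 and 2.38 to 0.307, 0 and 0.277 RPM (log2 difference -1.31), Zp1, an egg coat gene, fell by 1.45 and Gpr132, a G protein-coupled receptor gene, by 1.29. Of the 8 largest coding falls, taken among genes with a nascent mean of at least 1 RPM, 5 were at TSSs in no peak list. Of the 321 genes called lower 119 had no read in any 2 h library. With limma-voom 977 TSSs were lower, with a mean of at least 1 RPM required 135, and without any one 2 h library 234 to 308.

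The promoters of 2 fallers are printed beside the risers above with the same marks, Cidec (chr6:113435711-113436010, minus strand) and Gpr132 (chr12:112860867-112861166, minus), in which none of the 10 motifs searched was found. The promoter of Lcn2, also lower, is not printed and holds a GC box.
Cidec: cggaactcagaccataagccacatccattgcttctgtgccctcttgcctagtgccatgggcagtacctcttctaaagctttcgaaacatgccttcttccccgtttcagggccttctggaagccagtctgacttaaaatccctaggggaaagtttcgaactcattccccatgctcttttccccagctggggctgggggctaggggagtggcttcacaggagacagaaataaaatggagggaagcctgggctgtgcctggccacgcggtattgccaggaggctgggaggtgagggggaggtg
Gpr132: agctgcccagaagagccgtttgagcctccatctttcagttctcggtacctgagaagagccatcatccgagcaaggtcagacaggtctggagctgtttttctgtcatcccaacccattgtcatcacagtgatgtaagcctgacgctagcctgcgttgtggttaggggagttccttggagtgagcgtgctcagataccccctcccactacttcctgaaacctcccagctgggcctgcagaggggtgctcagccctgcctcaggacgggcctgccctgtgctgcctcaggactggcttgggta
Of 119 matched coding promoters called lower, 8.40% held a GC box, against 68.5% of the 6423 called higher and 37.8% of those not called. The median ratio of observed to expected CpG was 0.161 in the lower and 0.772 in the higher set. In 5 equal classes of that ratio over all matched coding promoters, 5.35% of the lowest class were higher at 2 h, then 28.1%, 60.0%, 64.5% and 59.3%.

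Of 660 microRNA genes tested 60 were higher (9.09%, against 35.5% of all genes) and 21 lower (1.32% of all genes were). Their median window held 0.625 RPM in nascent and 0.629 RPM in 2 h libraries, 3 reads or fewer. The low share of higher calls can therefore not be told from low depth. Members of the 2 clusters that mark embryonic stem cells were among those higher. Mir295, the last gene of the cluster that starts with Mir290a, went from 2.31, 4.54 and 4.23 to 16.9, 23.7 and 29.0 RPM (log2 difference 2.37), the window of Mir293 and Mir294 rose by 1.70, that of Mir291b by 0.82, and those of Mir290a (0.46) and of Mir291a and Mir292 (0.40) did not pass. Mir302b rose by 2.20, from 2.31, 1.01 and 2.12 to 12.3, 14.7 and 8.57 RPM. The 3′ arms of miR-294, miR-295 and miR-302b have the same seed (bases 2 to 8, in capitals; RefSeq, GRCm38.p6) and are shown because it occurs in both clusters, whereas other arms of the clusters, such as miR-293-3p and miR-302c-3p, have other seeds.
miR-294-3p: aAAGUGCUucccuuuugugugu
miR-295-3p: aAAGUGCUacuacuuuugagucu
miR-302b-3p: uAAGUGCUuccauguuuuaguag
The mature RNAs were not measured, and windows of 1 cluster overlap in part. Along the Mir290a cluster the 3 genes nearest its end rose most, and the Mir302 window that Mir302a, Mir302c and Mir302d share rose by 1.92.

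The 3 enhancers with the largest rises are given first. The window at chr2:134456001-134457000, 97947 bp from the nearest TSS (Hao1), went from 0.577, 0.505 and 0.529 to 16.2, 20.1 and 13.6 RPM (log2 difference 3.50, SE 0.32, adjusted p = 2.8e-19). That at chr8:4934001-4935000 went from 0.577, 1.51 and 1.85 to 21.8, 29.9 and 19.9 RPM (3.45) and that at chr5:87772001-87773000, 2127 bp from Csn1s2a, from 1.15, 0 and 2.12 to 16.9, 20.1 and 18.8 RPM (3.37). No nascent library was over 2.12 RPM in these 3 windows and no 2 h library under 13.6 RPM. The next, 855 bp from Gtf3c6, is the Rnu3a window given above and was more open behind the fork, at 2.31, 4.04 and 3.44 RPM. Of the enhancers in the most open of 5 equal classes by unbound level 99.5% were higher, against 11.8% of the least open class, and 88.1% of those in the nascent list against 6.34% of those in no list. The largest fall was at chr9:22359501-22360500, 29422 bp from the nearest TSS (Anln), from 1.15, 2.52 and 1.32 RPM to 0 in all 3 libraries.

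Of the 180232 other windows with a mean of at least 1 RPM, 28530 were higher (15.8%) and 5865 lower (3.25%), with a median of 0.12. With libraries scaled to the background there were 60999 higher and 2567 lower. Windows in a steady-state peak were higher in 26.7% of 104123 cases, and those outside in 0.951% of 76109, of which 6.88% were lower. Windows with an S5P peak were higher in 42.6% of 2881 cases.

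Sites listed in nascent chromatin and in no later list went the other way. The 8656 windows of this kind stood at 4.87, 4.77 and 4.64 times background in nascent and 4.24, 4.28 and 3.72 times in 2 h libraries, a ratio of 0.856 (exact permutation p = 0.1). Nascent chromatin was above the unbound level there (4.76 against 4.20 ± 0.155), and 2 h chromatin was close to it (4.08 against 4.33 ± 0.310). Of the 5956 tested, 818 were lower (13.7%) and 9 higher (0.151%). Of all windows tested outside TSSs and enhancers 3.25% were lower, and of those in no list 6.70%. These calls are on RPM, which also went down in background windows, from 0.303 to 0.193. The mean RPM of the 8656 windows went from 1.45 to 0.784, so their calls hold that general drop too. The nascent list was called on other libraries, so its level here is a second measurement. The next 2 windows are the largest falls among all those tested outside TSSs and enhancers. Both are in the nascent list, and whether a later list also holds them is not given here. The window with the largest fall, chr19:7374001-7375000, 32641 bp from the nearest TSS (Mark2), went from 5.19, 3.03 and 3.70 to 0, 0.360 and 0 RPM (log2 difference -2.14, SE 0.35, adjusted p = 2.7e-07), with 0.860 and 0.696 RPM in the unbound fraction. Another at chr11:95292001-95293000, 17745 bp from Kat7, fell from 4.61, 4.54 and 3.44 to 0.307, 0.360 and 0.277 RPM.

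Some sites rose less over the chase with triptolide than with DMSO. With triptolide itself 4204 TSSs were higher (14.1%) and 2403 enhancers (27.4%), and with DRB 10463 (35.1%) and 4989 (56.9%). In the test of the difference between the 2 changes (more in DMSO, or less, which includes falls), 125 TSSs rose more in DMSO than with triptolide (0.419%) and 9 less (0.0302%), and 758 enhancers rose more (8.64%) and 20 less (0.228%). Both counts depended on the setting: with each library centred 48 TSSs and 20 enhancers rose more (and 27 enhancers less), with limma-voom 12 and 86, and without 2 h replicate 2 46 and 345. Against DRB, 2 TSSs rose more (0.00671%) and 4 less (0.0134%), and 3 enhancers more (0.0342%) and 0 less (849 in either direction at an unadjusted p under 0.05).

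Of 57 histone genes 22 rose more in DMSO than with triptolide, and of 19 small nuclear RNA and U3 genes 7 did, where 120 of all 24375 genes did (0.492%) and 8 rose less (0.0328%). With limma-voom only 12 TSSs of any kind rose more, and 48 with each library centred, so not all of these genes can pass by limma-voom. Some histone genes share a window, as H2bc15 and H2ac15 do, so they are not all separate measurements. In their own tests, 16 of the 57 histone genes were higher with triptolide (16.0% of all genes) and 53 with DRB (39.6%). H2bc14 had a log2 difference of 2.90 in DMSO, 0.51 with triptolide (2.39 between them, adjusted p = 0.0040) and 1.58 with DRB. Rnu1a1 had 2.93 in DMSO, -0.14 with triptolide (3.08 between them) and 2.77 with DRB. Snord118 (difference 2.74), Snord13 (2.85), Rnu3a (2.77), Pabpc1, the poly(A)-binding protein gene (2.18), B3galt4 (2.00), Mtmr4 (1.97) and Gpr108 (1.68) also rose more than with triptolide. Gpr132, which was lower in DMSO, had a difference of -2.68.

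The 6 TSSs and 3 enhancers that differed from DRB are all named, chosen after their values were seen. Mir295 rose more in DMSO (2.37 against 0.25), as did Lrrc75a, from 5.19, 5.05 and 6.88 to 23.3, 34.5 and 39.0 RPM (2.29 against -0.36, adjusted p of the difference 0.0021). Junb, an AP-1 gene, rose more with DRB: it stood at 3.99, 5.76 and 3.60 RPM at 2 h in DMSO and at 14.9, 13.8 and 13.6 with DRB (difference -2.04, adjusted p = 0.038). Cbfa2t3, LOC115485831 and a TSS with no symbol at chr16:11143501-11144500 had lower changes over the chase in DMSO than with DRB (differences between the changes of -2.45, -2.15 and -1.87). The enhancers that rose more in DMSO lay at chr9:15317001-15318000, 10880 bp from 4931406C07Rik (difference 2.68), chr15:92703501-92704500 (2.33) and chr16:35404501-35405500 (2.43).

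A departure from both inhibitors lay past the ends of ribosomal protein genes. It was looked for after the windows that rose most had been seen, so it describes these libraries and is no independent test. For 19543 coding genes the window centred 1 kb past the annotated end was taken, and 17354 such windows that touch no TSS or enhancer window were kept, 60 of them at cytosolic ribosomal protein genes. There, the mean level was 6.36, 7.92 and 7.39 times background in nascent and 42.3, 60.8 and 47.6 times in 2 h DMSO libraries, 6.96-fold higher (7.22 ± 0.794 to 50.3 ± 9.54, exact permutation p = 0.1) and at 97.4% of the unbound level. The 2 h libraries spread widely, from 42.3 to 60.8, and the lowest of them was far above the highest nascent one. With DRB the same windows went from 3.40 ± 0.860 to 6.54 ± 0.349 and with triptolide from 2.45 ± 0.176 to 4.69 ± 0.207. The unbound fraction was also low there with the inhibitors (8.71 with DRB and 5.35 with triptolide at 2 h, against 51.6 in DMSO).

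The promoters of those 60 genes were about as open with DRB as with DMSO at 2 h. Their TSS windows went from 10.6 to 30.9 times background in DMSO, from 6.23 to 29.3 with DRB and from 3.74 to 9.65 with triptolide. In DMSO at 2 h the gene ends were more open than the starts. Along the genes the 2 h level was 27.2 at the end, 50.3 at 1 kb past it, 26.9 at 2 kb and 6.60 at 4 kb. Ribosomal protein genes are short and heavily transcribed, and polymerase runs on for some distance past the cleavage site before it leaves the DNA.

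**Figure D5:**
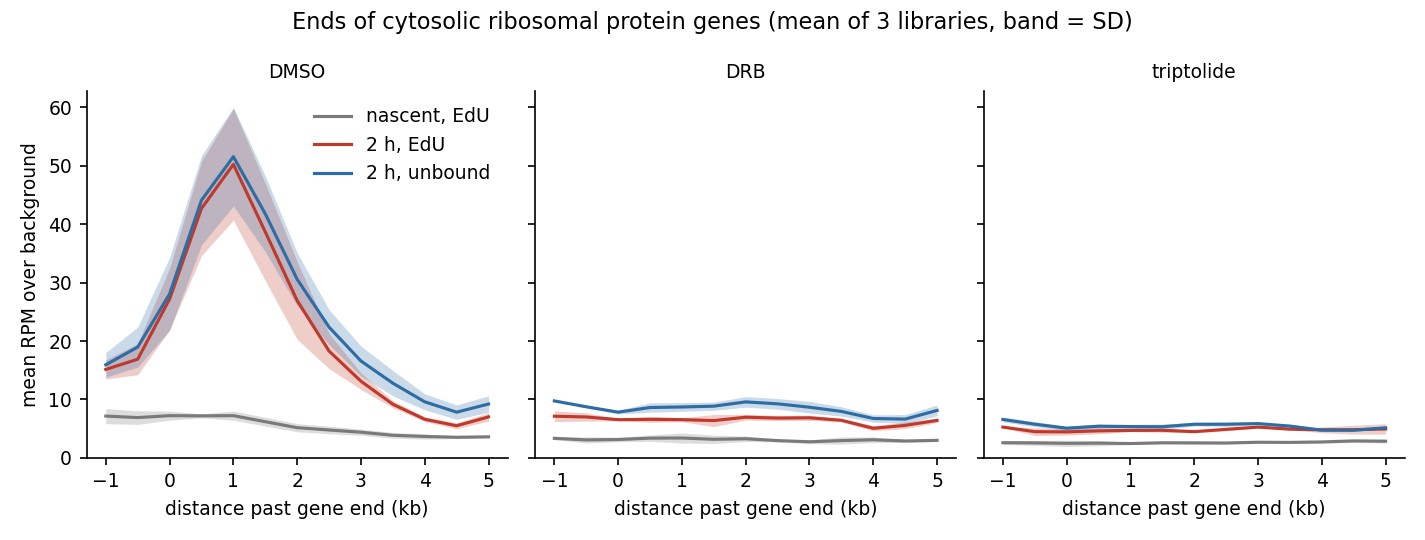
Mean RPM over background (y axis) from 1 kb before to 5 kb past the ends of cytosolic ribosomal protein genes (x axis) in nascent EdU, 2 h EdU and 2 h unbound chromatin with DMSO, DRB and triptolide; lines are means of 3 libraries and bands their SD. The 2 h EdU line in DMSO peaks at 50.3 at 1 kb past the end, where the same lines with DRB and triptolide stand at 6.54 and 4.69.

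In single windows, 421 of 16136 gene ends tested were higher in DMSO (2.61%) and 144 lower (0.892%), with a median of -0.10. Of the 59 ribosomal protein gene ends tested 48 were higher and 0 lower (median 1.70), against 3 with DRB (Rps14, Rps19 and Rps24, where 2.67% of all gene ends were higher) and 0 with triptolide (0.558% of all gene ends). In a fit of only the 6 DMSO libraries 0 gene ends were called, those 59 included. Over all gene ends 24 rose more than with DRB (0.149%) and 9 less (0.0558%), and 21 rose more than with triptolide (0.13%) and 8 less (0.0496%), and 14 of the 24 and 10 of the 21 were of ribosomal protein genes. Limma-voom called 387 gene ends higher and 405 lower, 10 more and 8 less than with DRB, and 5 more and 23 less than with triptolide, which turns the balance against triptolide. Without 2 h replicate 2 the counts were 238 higher, 9 more than with DRB and 5 more than with triptolide.

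Rpsa, which encodes a protein of the small ribosomal subunit, shows the pattern, and its promoter is printed to set its start beside its end (chr9:120127516-120127815, plus strand, capitals as above, here for CCAAT, for GGGCGG, the GC box, and for the ETS motif CCGGAAG, which 37.3% of 59 matched ribosomal protein promoters held against 12.9% of coding ones).
Rpsa: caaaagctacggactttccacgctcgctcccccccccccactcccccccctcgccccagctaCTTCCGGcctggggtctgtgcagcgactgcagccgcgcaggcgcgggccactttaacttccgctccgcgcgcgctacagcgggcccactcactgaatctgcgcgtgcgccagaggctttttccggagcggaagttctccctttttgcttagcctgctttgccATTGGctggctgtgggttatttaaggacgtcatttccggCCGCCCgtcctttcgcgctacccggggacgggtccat
The window past its end, chr9:120133001-120134000, stood at 0, 3.03 and 1.59 RPM in nascent and 16.6, 16.5 and 19.6 RPM at 2 h (log2 difference 3.08, SE 0.36, adjusted p = 4.0e-14), against differences of 0.25 with DRB and 0.27 with triptolide. Rpl3, of the large subunit, went from 7.50, 13.6 and 10.6 to 50.9, 70.9 and 59.2 RPM past its end (2.43). Rpl10 (2.57), Rpl10a (2.55), Rps9 (2.51), Eif1, a start codon selection factor (2.30), Rps26 (2.27), Rpl27a (2.15), Rpl35 (2.04) and Hsp90ab1, a cytosolic chaperone (1.98), rose past their ends too. With DRB the end of Hsp90ab1 had a difference of -0.61 and that of Rpl12 of -0.87, against 1.98 and 1.93 in DMSO. Map3k7 differed from this, with 2.40 in DMSO and 1.91 with DRB. The window past Denn2b (2.00) overlaps that of Rpl27a and shares reads with it, so the pair is not independent in the counts above.

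Other gene ends had smaller differences. At genes with an S5P promoter that encode no ribosomal protein the end windows went from 3.48 to 6.58 times background (153 of 4043 higher), from 4.26 to 10.2 for genes up to 10 kb long (78 of 1001) and from 3.22 to 5.38 for longer ones (75 of 3042). Where an S5P peak lies past the end (271 windows, some of ribosomal protein genes) the level went from 7.97 ± 0.227 to 35.7 ± 4.92 in DMSO, from 4.12 to 11.6 with DRB and from 4.27 to 9.11 with triptolide, and 110 of 265 tested were higher. Of mitochondrial ribosomal protein genes 0 of 60 ends tested were higher, of proteasome genes 0 of 32 and of respiratory chain genes 0 of 68 (with Cox8b and Ndufb7 lower), where 2.61% of all gene ends were higher, which is close to these counts.

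Gene ends also made up a large share of the windows outside TSSs and enhancers that rose more than with DRB. Of the other windows tested, 1004 rose more than with triptolide (0.557%) and 2850 less (1.58%), and 111 rose more than with DRB (0.0616%) and 857 less (0.475%). With each library centred these counts were 1669 and 591, and 276 and 62, and without 2 h replicate 2 they were 278 and 1005, and 31 and 332. Of the 111, 43 lay within 3 kb past a gene end (38.7%, against 5.82% of all tested) and 54 held S5P (48.6%, against 1.60%). The window that rose most, chr9:40806001-40807000, 5517 bp from the TSS of Hspa8, a constitutive heat shock chaperone, went from 2.31, 3.03 and 3.17 to 32.5, 33.1 and 31.8 RPM (log2 difference 3.13), with differences of 0.21 with DRB and 0.07 with triptolide.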

How the data were processed

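Repli-ATAC-seq reads were trimmed with Trim Galore 0.4.2 and aligned with Bowtie2 2.2.6.2 to mm10, per the submitters' processing notes. The authors deposited log2(RPM + 1) for windows of 1 kb in steps of 500 bp (5451088 of them over 22 chromosomes, for 36 libraries of the inhibitor experiment), per the file headers and the labels. Whole reads were recovered from the steps of these values (100% within 0.1 read), which gave 1299334 to 5554604 reads in the EdU libraries and 2351201 to 14363372 in the unbound ones. Further filters, and how peaks were called, have no statement in these sources. Of the deposited peak lists, which have no replicates, only positions were used (47341 nascent to 166636 steady-state peaks, and 9632 S5P peaks).

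Each TSS or enhancer took the window centred nearest its midpoint. TSSs were paired with RefSeq genes within 1000 bp, which named 26361 of them (25980 symbols, 1143 TSSs with more than 1 gene). Where windows overlap, or genes have near-identical copies, a value may belong to either. Windows above 0 in at least 3 of the 18 EdU libraries (other windows: a mean of at least 1 RPM) were fitted with limma 3.58.1 (moderated, trend; R 4.3.3) on group means of all 18, with Benjamini-Hochberg adjustment over each set of windows and a threshold of 0.05. Differences are 2 h minus nascent on the log2(RPM + 1) scale, which understates changes of low windows; their median SE was 0.33 at TSSs and 0.35 at enhancers. Class levels were compared by exact permutation tests (scipy 1.17.1). The limma step was tested on simulated data.

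Named were the 10 coding genes with the largest log2 rise and the 10 with the largest RPM rise, the 8 with the largest fall (nascent mean of at least 1 RPM), up to 3 called members of each of 40 gene lists, 9 genes of standing interest (of which Actb was not paired with a TSS), and 6 rises and 4 falls among enhancers and other windows. The members and lists were chosen with earlier results of these data known. The gene-end analysis, with its 13 named ends, the microRNA clusters and the 25 kb enhancer split were added after values were seen. Promoter motifs (10 patterns on both strands, overlaps allowed: GC box GGGCGG, NF-Y box CCAAT, ETS motif CCGGAAG, E-box CACGTG, promoter box TATAAA, AP-1 motif TGACTCA, the OCT4 octamer and the NRF1, CRE and YY1 motifs) were matched in RefSeq GRCm38.p6 sequences for 16076 TSSs, 14780 of them coding. The alternatives were other pseudocounts, filters, scalings, windows, limma-voom on recovered reads, a fit of the 6 DMSO libraries, a replicate block and leaving out each library. The labels do not say whether replicate numbers pair the libraries. Correlations of same-numbered libraries were all under 0.1, and the fits carry no block. With few reads per window a low correlation cannot show that pairing is absent.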

Additional observations from a re-analysis of the deposited data

Results flagged for a closer look

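A change over the chase that differed between DMSO and an inhibitor, by the limma test of the difference itself, was listed for a closer look. The differences below are the log2 change in DMSO minus that with the inhibitor.

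Against triptolide the counts that rose more and less in DMSO were 125 and 9 TSSs, 758 and 20 enhancers, 1004 and 2850 other windows and 21 and 8 gene ends. Against DRB they were 2 and 4 TSSs, 3 and 0 enhancers, 111 and 857 other windows and 24 and 9 gene ends.

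Among histone genes the difference from triptolide was 2.39 for H2bc14, 2.05 for the window of H2bc15 and H2ac15, 1.97 for H3c6 and 1.95 for H2bc8. Among genes of small nuclear and nucleolar RNAs it was 3.08 for Rnu1a1, 2.85 for Snord13, 2.77 for Rnu3a, 2.74 for Snord118 and 2.28 for Rnu3b4. Of the other promoters, Defb1 had 2.62, Pabpc1 2.18, B3galt4 2.00, Mtmr4 1.97, Cdc20, an activator of the anaphase-promoting complex, 1.71, Gpr108 1.68, Chek2, a checkpoint kinase gene, 1.68 and Zfp444 1.58. Gpr132 had -2.68. Mir295 differed from DRB by 2.12.

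Past gene ends, Rpsa differed from triptolide by 2.81 and from DRB by 2.83. Denn2b (2.58 and 2.46), Rpl27a (2.27 and 2.73), Rpl3 (2.14 and 1.85), Rpl10a (2.13 and 1.93), Eif1 (2.00 and 2.51) and Hsp90ab1 (1.76 and 2.59) differed from both in the same order. Rps9 (2.54) and Rpl10 (2.17) differed from triptolide, and Rpl12 (2.80), Rps26 (2.66) and Rpl35 (2.39) from DRB.

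Of the enhancers named, here by their nearest TSS, those of Hao1 (97947 bp away, 1.60), Shcbp1 (154846 bp, 1.35), Gtf3c6 (855 bp, 2.77), Snx19 (170767 bp, 2.16) and Ppp6c (1684650 bp, 1.71) rose more than with triptolide, and the falls at Anln (29422 bp, -1.53) and Eif4e2 (14015 bp, -1.50) differed the other way. The window nearest Gtf3c6 is also that of Rnu3a, so both values come from the same measurement. Of the other windows, the one 5517 bp from Hspa8 differed from triptolide by 3.06 and from DRB by 2.93, the one past Rpsa by 2.81 and 2.83, and those nearest to Dgki (441683 bp) and Irgm1 (15182 bp) from triptolide by 1.84 and 1.65. The windows that fell in DMSO and lay nearest to Mark2 (32641 bp, -2.42), Kat7 (17745 bp, -2.56), Afmid (5423 bp, -1.88) and Glo1 (27842 bp, -2.21) differed from triptolide, with which their own changes were 0.28, 0.59, -0.03 and 0.32 and did not pass.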

How the results depend on the processing

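In the 2 h libraries, windows under about 1 RPM hold 3 reads or fewer, so falls of low windows were at the limit of the depth and no fold is given for those at 0. The rises of class levels and shares kept their direction under each alternative run. Pairs of counts below are higher and lower, or more and less than with the inhibitor.

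With each library centred on its median window there were 4742 and 4186 TSSs, 1585 and 1407 enhancers and 724 and 20 gene ends. The differences from triptolide were then 48 TSSs higher, 20 enhancers higher, 1669 and 591 other windows and 5 gene ends lower, and those from DRB 1 TSS higher, 276 and 62 other windows and 14 and 1 gene ends. Scaled to background windows there were 14213 higher TSSs, 32 lower enhancers, 60999 and 2567 other windows and 1220 higher gene ends. Limma-voom called 977 lower TSSs and 405 lower gene ends. It called 12 TSSs, 86 and 6 enhancers, 432 higher other windows and 5 and 23 gene ends against triptolide, and 0 and 1 TSSs, 1 enhancer, 14 and 68 other windows and 10 higher gene ends against DRB. The fit of only the 6 DMSO libraries called 325 lower TSSs and 0 gene ends in either direction, also 0 of ribosomal protein genes. A mean of at least 1 RPM left 135 lower TSSs and 16 lower enhancers, and of at least 2 RPM 17826 and 904 other windows. No filter left 16245 and 3381 other windows, the mean of 3 neighbouring windows 785 lower TSSs, and a pseudocount of 0.25 270 and 67 gene ends. By the median of the class in place of its mean, 2 h over nascent was 1.98 for TSSs, 4.46 for enhancers and 2.14 for other steady-state peaks. The causes of these shifts were not tested.

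Leaving out each of the 6 libraries in turn gave 234 to 539 lower TSSs, 40 to 73 lower enhancers, 2888 to 5145 lower other windows and 238 to 368 higher and 33 to 212 lower gene ends. Against triptolide it gave 46 to 157 and 3 to 10 TSSs, 345 to 734 and 6 to 23 enhancers, 278 to 1019 and 1005 to 2606 other windows and 5 to 17 and 2 to 8 gene ends. Against DRB it gave 0 to 2 and 0 to 5 TSSs, 2 to 7 higher enhancers, 31 to 121 and 332 to 755 other windows and 9 to 20 and 2 to 11 gene ends. The lowest count was most often that without 2 h replicate 2. Of 2057 alternative values for named genes 84 lost their call, 4 gained one and 2 turned, both for the gene Esrrb (-0.14 centred, -0.085 without nascent replicate 2; leaving out each library in turn gave -0.085 to 0.67). Of the named gene ends 13 of 182 lost their call, all in the fit of 6 libraries.

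With the replicate number as a block the counts were 9405 and 510 TSSs, 5600 and 75 enhancers, 29074 and 6115 other windows and 428 and 156 gene ends, and no count moved by over 1.5 times. Each of the 6 libraries correlated best with its own number, but at no more than 0.0402, a hint from the data and not from the design.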
